A study of Zea mays with 47 samples.

Results

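A set of 100 maize genes with their highest leaf transcript level at 32°C was examined, out of 17905 genes counted. The genes were chosen by their own measured values: counts were scaled to CPM, a count relative to the size of its library, with TMM factors that correct for library composition, log2(CPM + 1) was averaged over all libraries of a heat level, and the genes were ranked by the smaller of the 2 differences of 32°C against 25°C and of 32°C against 38°C. Only the 10201 genes with a mean of at least 2 CPM were ranked. The differences of 32°C against 25°C and against 38°C are therefore given as a description, without a test.

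RNA was sequenced from the youngest fully developed leaf of seedlings of 8 European inbred lines grown at day temperatures of 25, 32 or 38°C, and each library was made from pooled leaf pieces of several plants. For 32 and 38°C the temperature was raised only after the first days of growth, and nights were cooler than days at each heat level. The Flint lines were L043 and L012 (heat tolerant) and L023 and L017 (heat susceptible), and the Dent lines were S058 and S067 (heat tolerant) and S070 and P040 (heat susceptible). The heat levels had 16 (25°C), 15 (32°C) and 16 (38°C) libraries, 2 replications per line and heat level except for L017 at 32°C, which had 1. Plants of different heat levels were grown in separate chamber runs, so that temperature and chamber run cannot be told apart. The p-values of tests over libraries measure the spread between these libraries. Those of tests on 1 value per line measure the spread between the 8 lines.

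In a leaf, chlorophyll a/b binding proteins form the antenna that passes light energy to the photosystems. They are encoded in the nucleus, and their transcripts follow light, the time of day and the state of the chloroplast. Protochlorophyllide oxidoreductase carries out the light-dependent step of chlorophyll synthesis, and thiazole synthase makes one part of thiamine, whose active form is a cofactor of carbon metabolism.

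Library totals were between 3687700 and 20642205 counts, and their medians were 15240394.5 (25°C), 11026623 (32°C) and 8656243 (38°C). Of 31 libraries at 25 and 32°C, 27 resembled the 38°C libraries of their own line most closely, with correlations of 0.303 to 0.656 over genes. The library labelled S070 at 32°C, replicate 1, resembled P040 (r = 0.605, against -0.0208 for S070), and that labelled P040 at 32°C, replicate 1, resembled S070 (r = 0.477, against -0.0978 for P040). Replicate 1 labelled P040 at 25°C was slightly closer to L017 (0.289) than to P040 (0.263), and results were also computed without these 3 libraries. The fourth, labelled P040 at 32°C, replicate 2, was closer to L017 (0.231) than to P040 (0.162) and stayed in. All 8 leaf markers measured (such as pep1, the phosphoenolpyruvate carboxylase of C4 leaves, with a mean of 1709 CPM) passed 2 CPM, and of the 2 markers of other organs measured, rth3 of root hairs had a mean of 0.838 CPM and zmm19 of inflorescences 6.08 CPM.

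Levels depended on the scaling. Scaling by total counts instead of TMM moved the median gene by 0.56 for 32°C against 25°C, by -0.90 for 32°C against 38°C and by 1.45 for 38°C against 25°C (log2). Single transcripts took a large share of the counts, with a median of 20.7% for the most abundant gene at 25°C, 17.4% at 32°C and 12.9% at 38°C, and their part in this shift was not tested. Under total counts, 91 of the 100 genes still had their highest mean at 32°C, and 54 remained in the first 100. Values below are on the TMM scale and are relative to the other genes.

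The mean over the 100 genes was 2.76 ± 0.31 at 25°C (SD, n = 16 libraries), 4.44 ± 0.53 at 32°C (n = 15) and 2.87 ± 0.22 at 38°C (n = 16) in log2(CPM + 1). Libraries ranged from 2.25 to 3.51 at 25°C, from 3.21 to 5.27 at 32°C and from 2.45 to 3.23 at 38°C. Only the 32°C library labelled P040, replicate 2, lay within the range of the other heat levels. As a share of raw counts, the genes took a median of 0.115% at 25°C, 0.582% at 32°C and 0.288% at 38°C. These shares are not on the TMM scale.

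The smaller of the 2 differences had a median of 1.11 (log2) over the 100 genes and reached 4.36. The gap to 25°C was the smaller one in 38 genes and the gap to 38°C in 62. Most members were of low abundance, with a median of 8.07 CPM (5.04 CPM over the 10201 ranked genes), and 13 exceeded 100 CPM on average. The last genes inside were GRMZM2G023711 (0.91) and GRMZM2G122324 (0.90), and the first outside were GRMZM2G019363 (0.90) and GRMZM2G177508 (0.89), so that the limit separates genes that hardly differ. For comparison, 25.3% of the ranked genes had their highest mean at 32°C, as all 100 did by choice.

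The highest scores belonged to 4 genes that moved together, GRMZM2G120619 (cab48, a chlorophyll a/b binding protein), AC208915.3_FG010, GRMZM2G429955 and GRMZM2G104549. GRMZM2G120619 had a lowest, median and highest level of 2.62, 7.74 and 202 CPM at 25°C, of 23.97, 250.2 and 706 CPM at 32°C, and of 0.194, 2.20 and 19.7 CPM at 38°C. Every 32°C library lay above every 38°C library, and 11 of 15 lay above the highest 25°C library. AC208915.3_FG010 had medians of 12.4 CPM at 25°C, 351 CPM at 32°C and 3.25 CPM at 38°C. The 4 profiles correlated at 0.990 to 0.999 over libraries, so that reads of near-identical copies may have been split among them and their separate levels are uncertain. The 6 genes GRMZM2G333013, GRMZM2G333029, GRMZM2G001877, GRMZM2G037751, GRMZM2G083053 and GRMZM2G302295 (0.972 to 0.9995) and the pairs GRMZM2G091743 with GRMZM2G110553 (0.990) and GRMZM2G418289 with GRMZM5G889520 (0.992) carry the same doubt. The last pair are also neighbours in the NAM-5.0 annotation.

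Of the members, 14 had a name or description, and several of these encode antenna proteins. GRMZM2G351977 (cab-m1, a light-harvesting chlorophyll a/b binding protein) had a lowest, median and highest level of 43.7, 137 and 678 CPM at 25°C, 78.7, 521 and 1473 CPM at 32°C, and 2.57, 18.8 and 61.9 CPM at 38°C. All 15 libraries at 32°C lay above all at 38°C, while 4 exceeded the highest at 25°C. GRMZM2G155216 (lhcb3, of the photosystem II antenna) had medians of 161 CPM at 25°C, 384 CPM at 32°C and 49.4 CPM at 38°C. GRMZM2G092427 (lhcb6, the minor antenna protein CP24) had medians of 58.1 CPM at 25°C, 132 CPM at 32°C and 33.97 CPM at 38°C. GRMZM2G033885, listed under the names cp29 and psb29, had medians of 183 CPM at 25°C, 413 CPM at 32°C and 154 CPM at 38°C. In these last 3 genes the 32°C and 25°C libraries overlapped widely.

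Of 12 measured genes of the list of light harvesting and photosystem proteins, 4 were members and 10 had their highest mean at 32°C, with a median score of 0.71, against -0.16 over all ranked genes. Genes of this list outside the set included psaD and psaH of photosystem I, whose scores were 0.75 for GRMZM2G024150 and 0.76 for GRMZM2G451224. The scores of psbs1 (GRMZM2G077333, -0.76) and lhcb4 (GRMZM2G103101, -0.13) were negative. Under total counts 9 of the 12 had their highest mean at 32°C, against 2.93% of all genes kept on that scale.

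Chlorophyll and thiamine synthesis were represented by 3 genes. GRMZM2G073351 (por, protochlorophyllide oxidoreductase) had a lowest, median and highest level of 15.01, 24.8 and 100.2 CPM at 25°C, 29.2, 88.0 and 166 CPM at 32°C, and 13.2, 26.4 and 69.0 CPM at 38°C. GRMZM2G074097 (thi2, a thiazole synthase) had medians of 9.55 CPM at 25°C, 69.8 CPM at 32°C and 13.7 CPM at 38°C. GRMZM2G018375 (thi1, the other thiazole synthase) had medians of 51.4 CPM at 25°C, 176 CPM at 32°C and 46.4 CPM at 38°C. At 25°C thi2 had 1.02 to 8.39 CPM in the replicate 1 libraries and 10.7 to 48.3 CPM in the replicate 2 libraries, with replicate 2 higher in all 8 lines. For thi1 the ranges at 25°C were 19.2 to 77.1 CPM (replicate 1) and 48.7 to 190 CPM (replicate 2), again with replicate 2 higher in all 8 lines. At 32°C thi2 was also higher in replicate 2 (69.8 and 307 CPM in L023), except in the libraries labelled S070 (140 and 92.3 CPM). The exceptions for thi1 at 32°C were the libraries labelled S070 and P040. At 38°C both genes were higher in replicate 2 except in S070. L017 at 32°C had no replicate 2. Both thiazole synthase genes were higher at 32°C than at the other heat levels in all 8 lines. Among the 7 measured genes of the chlorophyll and tetrapyrrole list, 5 of them with at least 2 CPM, por was the only member.

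GRMZM2G073743, listed under the name CHL, had medians of 6.66 CPM at 25°C, 15.5 CPM at 32°C and 5.12 CPM at 38°C, with its highest mean at 32°C in all 8 lines. GRMZM2G088753 (sbe1, a starch branching enzyme) had medians of 7.85 CPM at 25°C, 19.996 CPM at 32°C and 7.0001 CPM at 38°C, and was the only member of 19 measured genes of the starch list. Another gene model listed under the name sbe1, GRMZM2G088737, lay below 2 CPM on average and was not ranked. It had no peak at 32°C, with means of 1.42 at 25°C, 1.25 at 32°C and 1.37 at 38°C in log2(CPM + 1). GRMZM2G098298 (ccp1, a cysteine protease) had medians of 129 CPM at 25°C, 288 CPM at 32°C and 98.6 CPM at 38°C. It was the only member of 26 genes of the autophagy and proteolysis list, of which 22 had at least 2 CPM. At 25°C it had 72.9 to 121 CPM in replicate 1 and 137 to 347 CPM in replicate 2, with replicate 2 higher in all 8 lines. Replicate 2 of ccp1 was also higher at 32°C where both were sequenced, except in the libraries labelled P040. GRMZM5G830932 (sig3, a sigma factor of the plastid RNA polymerase) had medians of 2.65 CPM at 25°C, 6.85 CPM at 32°C and 2.93 CPM at 38°C. No member came from the lists of heat shock proteins (21 genes measured), C4 cycle and Rubisco genes (11), clock genes (7) or transcription factors (169). Of these lists, 15, 11, 6 and 86 genes had at least 2 CPM and could be members. As only 100 of all 10201 ranked genes were members, their absence from such lists says little.

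**Figure D1:**
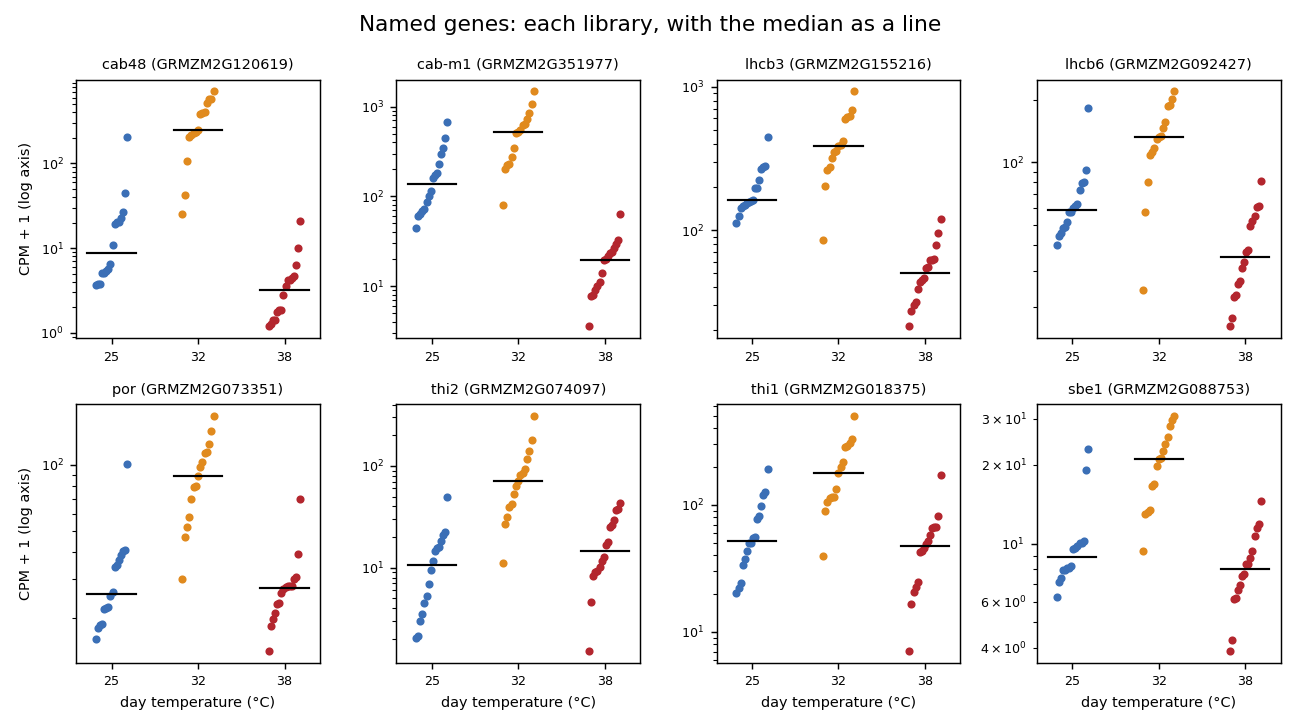
Level of 8 named genes in each library (points, CPM + 1 on a log axis, sorted within a heat level) at 25, 32 and 38°C, with the median as a line. In cab48 and cab-m1 all 15 libraries at 32°C lie above all libraries at 38°C, while the 25°C and 32°C libraries overlap in all 8 genes.

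The remaining genes among the 12 highest scores have no name in the annotation, and their medians at 25°C were at most 2.63 CPM. GRMZM2G483598 had a lowest, median and highest level of 0, 0.459 and 1.95 CPM at 25°C, 0.249, 10.1 and 50.5 CPM at 32°C, and 0, 1.01 and 3.48 CPM at 38°C. GRMZM2G074307 was the most abundant of them, with medians of 2.63 CPM at 25°C, 61.4 CPM at 32°C and 9.01 CPM at 38°C, and 13 of 15 libraries at 32°C exceeded all at 25°C. GRMZM2G053315 had medians of 0.419 CPM at 25°C, 9.07 CPM at 32°C and 1.91 CPM at 38°C. In this gene 14 of 15 libraries at 32°C exceeded all at 25°C and 7 exceeded all at 38°C. GRMZM2G013588 spread between 0 and 86.4 CPM at 32°C with a median of 7.77 CPM, against medians of 0.368 CPM at 25°C and 0.985 CPM at 38°C. Its 32°C level was higher in replicate 2 (2.02 and 24.1 CPM in S067), except in the libraries labelled P040. GRMZM2G146981 had medians of 0 CPM at 25°C, 5.56 CPM at 32°C and 1.19 CPM at 38°C, and reached at most 0.874 CPM at 25°C. By edgeR's test all of these but GRMZM2G483598 (0.83 ± 0.66, adjusted p = 0.31) were higher at 38°C than at 25°C, with log2 fold changes of 1.41 (GRMZM2G053315) to 3.94 (GRMZM2G146981).

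The only gene of the set whose 32°C libraries all lay above every 25°C and every 38°C library was GRMZM2G077181, which was named after its values were seen. Its level was 0.527, 1.56 and 4.73 CPM (lowest, median and highest) at 25°C, 6.30, 10.3 and 19.1 CPM at 32°C, and 1.58, 3.62 and 5.39 CPM at 38°C. Over the ranked genes the share was 0.0098%, that is this gene alone. GRMZM2G017186, annotated as exhydrolase II, had medians of 0.588 CPM at 25°C, 14.96 CPM at 32°C and 4.22 CPM at 38°C, and all its 32°C libraries exceeded those at 25°C.

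The rule did not rank genes by the difference of 38°C against 25°C. It did use the 25°C and 38°C means of the same libraries, so the comparison is not independent of the choice. By edgeR's quasi-likelihood test (adjusted p under 0.05), 30 of the 100 genes were higher at 38°C than at 25°C, against 25.5% of all 17905 genes, and 14 were lower, against 20.5%. The remaining 56 were not called. This fit held heat level alone, with the libraries of a heat level as replications and no term for line. Libraries of the same line were thus treated as independent. The median log2 fold change was 0.12 over the members, 0.07 over all genes and -0.07 over the ranked genes. Both shares were near those of all genes, which include genes below 2 CPM that could not be members. Under total counts 91 were higher and 1 was lower, while 17001 of all genes were higher and 72 lower, and of the 14 genes lower on the TMM scale 8 had a positive estimate.

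Several antenna genes were among the members lower at 38°C, while GRMZM2G033885 (cp29) was not called (-0.24 ± 0.20, adjusted p = 0.35 by edgeR). GRMZM2G351977 (cab-m1) was lower at 38°C than at 25°C by a log2 fold change of -3.33 ± 0.41 (SE, adjusted p = 5.02e-09 by edgeR), and of -1.49 under total counts. GRMZM2G155216 (lhcb3) followed with -1.89 ± 0.24 (adjusted p = 1.35e-08), which became -0.06 under total counts. GRMZM2G120619 (cab48) had -2.79 ± 0.60 (adjusted p = 0.00016), and -0.91 (adjusted p = 0.095) under total counts. GRMZM2G092427 (lhcb6) had -0.80 ± 0.23 (adjusted p = 0.0042), and turned to 1.01 under total counts. Of the 12 genes of the list, 9 were lower and 0 higher at 38°C on the TMM scale, and 1 lower and 9 higher under total counts. GRMZM2G036880, a gene with no name in the annotation, was lower by -1.72 ± 0.31 (adjusted p = 9.02e-06), with 0.13 under total counts.

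At the upper end stood genes nearly silent at 25°C. GRMZM2G028665 had 0, 0.361 and 1.08 CPM (lowest, median and highest) at 25°C, 0.788, 18.6 and 125 CPM at 32°C, and 1.85, 7.52 and 17.4 CPM at 38°C, and no 38°C library overlapped the 25°C libraries (log2 fold change 4.48 ± 0.53, adjusted p = 2.9e-09 by edgeR). At 32°C this gene was higher in replicate 2 in every line with both replicates (10.2 and 125 CPM in L023). GRMZM5G862276 was higher at 38°C by 2.38 ± 0.37 (adjusted p = 6.61e-07), and GRMZM2G017186 by 3.23 ± 0.54 (adjusted p = 2.76e-06). GRMZM2G343149, a gene with a DnaJ domain as in co-chaperones, was higher by 2.77 ± 0.51 (adjusted p = 1.47e-05). For por (-0.19 ± 0.23, adjusted p = 0.53), thi2 (0.57 ± 0.44, 0.30) and thi1 (-0.39 ± 0.33, 0.36) no difference was called on the TMM scale.

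**Figure D2:**
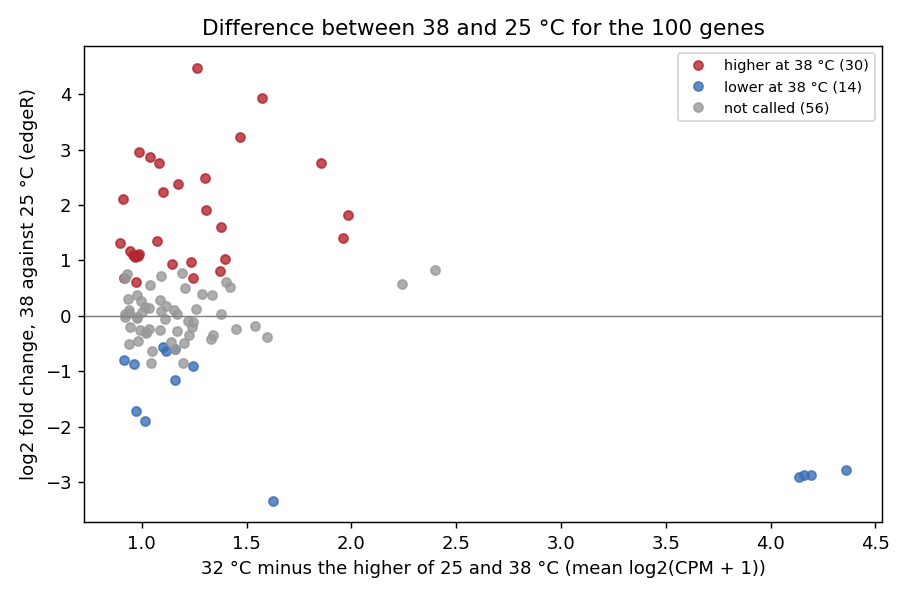
The log2 fold change of 38°C against 25°C (y axis, edgeR) of each of the 100 genes against the smaller of its 2 differences at 32°C (x axis, log2). Colours mark the 30 genes higher at 38°C, the 14 lower and the 56 not called; the 4 genes beyond 4 on the x axis are the near-identical group with cab48.

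Within lines, 48 of the 100 genes had their highest mean at 32°C in all 8 lines (1.33% of ranked genes did), 38 in 7 lines, 13 in 6 lines and 1 in 4 lines. As the rule averaged these same libraries over the lines, a larger share than over the ranked genes follows from the choice. Without the 3 libraries that resembled another line the first count was 30. By line, the number of genes with their highest mean at 32°C was 99 in L043, 94 in L012, 99 in L023 and 98 in L017 among the Flint lines, and 75 in S058, 98 in S067, 89 in S070 and 80 in P040 among the Dent lines. The median size of the peak was 1.36, 1.14, 1.598 and 1.48 (log2) in these Flint lines and 0.72, 1.51, 0.62 and 0.77 in these Dent lines. The libraries labelled S058, S070 and P040 thus had the smaller peaks. The 32°C replicate 1 libraries labelled S070 and P040 each resembled the other line, so their values may mix these lines. Without the 3 libraries S070 had 83 genes and a median of 0.73. P040 then had 51 genes and a median of 0.08, from its 1 remaining 32°C library, which itself was closer to L017 than to P040.

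**Figure D3:**
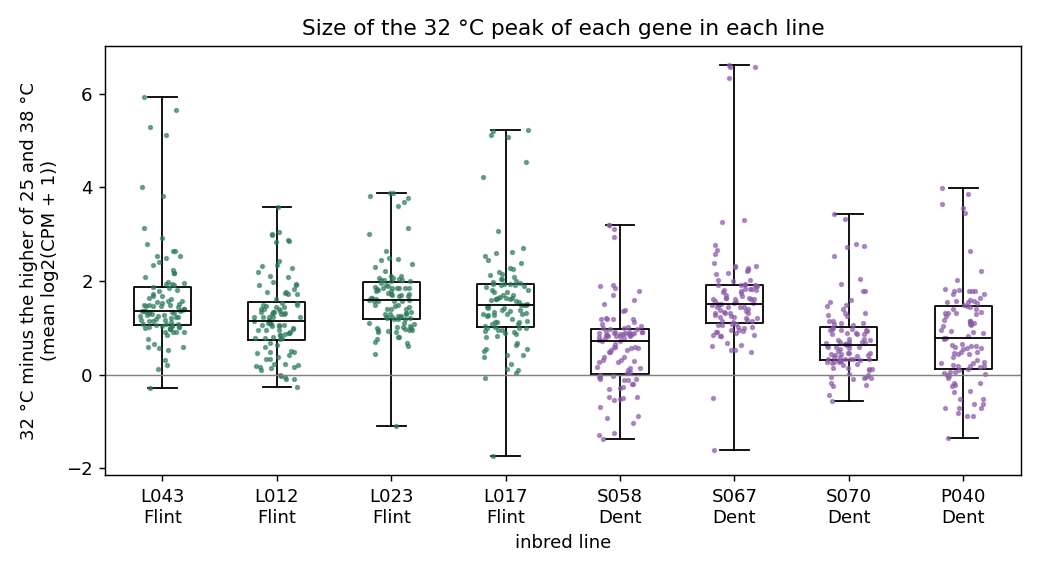
Mean log2(CPM + 1) at 32°C minus the higher of the means at 25 and 38°C (y axis) for each of the 100 genes (points) in each line (x axis), with boxes at the quartiles and whiskers at the extremes. Medians are between 1.14 and 1.598 in the Flint lines and between 0.62 and 1.51 in the Dent lines.

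The size of the peak (32°C minus the mean of 25 and 38°C) was compared between pools. It was larger in Flint than in Dent lines in 91 of the 100 genes, with a median difference of 0.65 (log2), against 0.01 over the ranked genes, but no member passed limma's test over the 4 Flint and 4 Dent lines (0 genes called, 0% of all genes in either direction; 25 members and 1317 of all genes had an unadjusted p under 0.05). The contrast by edgeR over the libraries also called 0 members. Between tolerant and susceptible lines, 61 members had the larger peak in tolerant lines. The median difference was 0.10, against 0.03 over the ranked genes. By limma (0% of all genes) or edgeR, 0 members were called. By limma, 2 members and 762 of all genes had an unadjusted p under 0.05.

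Over the 8 lines, the peak differed in 1 member by edgeR's quasi-likelihood F test, against 0.508% of all genes. It was GRMZM2G088753 (sbe1, adjusted p = 0.019). Its level at 32°C was 29.7 and 24.5 CPM in L023, 27.0 and 28.6 CPM in L012, and 8.37 and 12.2 CPM in the libraries labelled S070. The other 7 lines had their highest mean at 32°C. The mean of the libraries labelled S070 was highest at 38°C (12.02 CPM, against 9.05 CPM at 25°C), but the value of 8.37 CPM came from the 32°C library that resembled P040, and without it the remaining 12.2 CPM at 32°C lay between the 38°C libraries (13.5 and 10.5 CPM). Without the 3 libraries, 20 members were called (5.47% of all genes), sbe1 among them (adjusted p = 0.024), together with por and lhcb3.

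The level of the members over all heat levels depended on the line. By the F test 78 of the 100 genes differed between lines, against 58.9% of all genes. The smallest adjusted p was that of GRMZM2G091743 (3.57e-10). Its mean at 32°C was 18.8 CPM in L043, 32.5 CPM in L012, 28.4 CPM in L023 and 17.7 CPM in L017, against 0.463 CPM in S058, 4.32 CPM in S067, 0.982 CPM in S070 and 0.796 CPM in P040, so that all Flint lines lay above all Dent lines.

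By limma over 1 mean level per line, 3 members were higher in Flint lines (0.961% of all genes were) and 1 was lower (1.2%). GRMZM2G110553 was higher by 3.35 ± 0.35 (log2, SE, adjusted p = 0.0040), GRMZM2G091743 by 3.20 ± 0.36 (adjusted p = 0.0058) and GRMZM2G587231 by 3.19 ± 0.63 (adjusted p = 0.046). The first and second of these have near-identical profiles and may share reads. GRMZM2G337242 was lower in Flint lines (-1.96 ± 0.37, adjusted p = 0.040), with means at 32°C of 1.52 to 3.00 CPM in Flint and 5.91 to 11.7 CPM in Dent lines. Reads were aligned to one reference line, and the part of sequence differences between lines in these levels was not tested.

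Of 7 measured clock genes, whose levels follow the time of day, 2 were higher and 3 lower at 38°C than at 25°C (edgeR, adjusted p under 0.05, TMM scale), and 2 were not called. Of the 6 with at least 2 CPM, 4 had their highest and 2 their lowest mean at 32°C. CCA1 (GRMZM2G014902), a morning factor, had mean levels of 7.10 at 25°C, 4.13 at 32°C and 6.32 at 38°C in log2(CPM + 1), and LHY (GRMZM2G474769) had 5.82, 3.16 and 4.16. TOC1 (GRMZM2G148453), an evening component, had 0.79, 2.48 and 2.25. Antenna genes are known to be under clock control, and the part of sampling time in the members' peak was not tested.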

How the data were processed

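Seedling leaf RNA of 47 libraries (8 lines, 3 heat levels) was analysed. Raw counts per gene for 17905 genes were deposited by the authors, who used TopHat2 2.0.3 and the B73 RefGen_v3 genome per the submitters' processing notes and counted reads of protein-coding genes on nuclear chromosomes with easyRNASeq. Libraries were grouped by the labels, pools and tolerance classes by the methods of the study. Members and lists were chosen with earlier results of these data known, and list patterns were tightened after their matches were seen. Named genes were the 12 highest scores, up to 3 members of each list, the genes on either side of the limit, up to 3 members with the smallest p per test and direction, annotated members and neighbouring members. Of the 100 members, 72 matched the RefSeq table (Zm-B73-REFERENCE-NAM-5.0), and 14 had a name or description.

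Counts were scaled by TMM in edgeR 4.0.16 (R 4.3.3). edgeR's quasi-likelihood F test, over all genes, served for 38°C against 25°C and for lines. For 38°C against 25°C the fit had no term for line, so libraries of the same line were not matched across heat levels. Pool and tolerance differences were tested by limma 3.58.1 on 1 value per line (log2 CPM, prior count 2), tolerance with the pool as covariate. P-values were adjusted by Benjamini-Hochberg, at 0.05. SEs of edgeR are the fold change over the root of F. DESeq2 1.42.0 served as an alternative. Scripts were tested on simulated data. Promoter motifs were not analysed here.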

Additional observations from a re-analysis of the deposited data

Results flagged for a closer look

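The 32°C peak of GRMZM2G088753 (sbe1) differed between the 8 lines (edgeR's quasi-likelihood F test, adjusted p = 0.0194). The gene had its highest mean at 32°C in 7 lines and at 38°C in the libraries labelled S070. Replicate 1 labelled S070 at 32°C (8.37 CPM) resembled P040. The other S070 library had 12.2 CPM at 32°C, against a mean of 12.02 CPM at 38°C, and lay between the 38°C libraries (13.5 and 10.5 CPM). Without the 3 libraries that resembled another line the adjusted p was 0.024.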

How the results depend on the processing

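Membership depended on the scaling: 54 of the 100 genes were shared with the list from total counts, against 73 to 100 under the other alternatives that kept all lines and replicates, and 74 to 96 when a replicate number or a line was left out. For 38°C against 25°C, total counts (chosen after seeing the data) gave 91 genes higher and 1 lower, and a slope over heat levels 4 higher and 2 lower. Leaving out a replicate number or a line gave 17 to 30 genes higher and 3 to 15 lower, against 30 and 14, and 1 gene for each near-identical group 23 and 11. Without the 3 libraries that resembled another line, 30 genes peaked in all 8 lines (chosen after seeing the data), against 48. The peak differed between lines in 20 genes without these libraries, in 11 by DESeq2, in 4 with a replicate block, and in 1 to 2 with a line left out, against 1. The level differed between Flint and Dent lines in 25 genes (higher) and 13 (lower) by edgeR over the libraries, and in 0 (lower) with a prior count of 0.5; leaving out a line gave 2 to 3 higher and 0 to 1 lower, against 3 and 1. The median Flint minus Dent difference of the peak was 0.85 without the 3 libraries and 0.51 to 0.93 with a line left out, against 0.65. The cause of these changes was not tested.

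The labels do not say what a replicate number shares, and not every correlation passed 0.1, so the replicate block was not the main fit. Replicate differences correlated between lines at 0.058 to 0.398 at 25°C (median 0.263, all 28 line pairs positive), -0.179 to 0.403 at 32°C (median 0.21) and -0.212 to 0.436 at 38°C (median 0.118), a hint from the data of a shared replicate effect. With the replicate block, 31 genes were higher and 15 lower at 38°C, and the level differed between lines in 85. No named gene's score changed sign under any membership alternative. Lowly expressed members rest on few counts in the shallowest libraries.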
